A study of Homo sapiens with 16 samples.

Results

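The genes described here encode the AP-1 transcription factor family and EGR1. They were chosen by symbol: FOS, FOSB, FOSL1, FOSL2, JUN, JUNB, JUND and EGR1 make 8 of the 35106 gene rows of the count table. RNA was sequenced from 2 human breast cancer cell lines in a search for markers of the response to MitoQ, a ubiquinone joined to a triphenylphosphonium cation that draws it into mitochondria. The mesenchymal-type line MDA-MB-231 is triple-negative, while SKBR3 carries an amplified ERBB2 gene. At passage 25, MDA-MB-231 gave 5 control and 5 treated libraries. At passage 10, SKBR3 gave 3 of each. MitoQ was given at 500 nM for 48 h, and all cells grew in high-glucose DMEM with GlutaMax and fetal bovine serum. The sources used here do not give what the control cells received or whether replicates came from separate cultures, so p-values measure only the spread between these libraries. Each line stands for itself alone, and line and passage cannot be told apart.

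AP-1 is a dimer of basic leucine zipper proteins, usually a FOS family member (FOS, FOSB, FOSL1, FOSL2) with a JUN family member (JUN, JUNB, JUND). EGR1 is a zinc finger factor. Most of these genes are immediate early genes: growth factors and stress act through MAP kinases on factors already present, such as SRF with its ELK and MRTF cofactors at CArG boxes, and transcription starts within minutes, while the mRNAs are short-lived. FOSL1 and JUN are known for high levels in mesenchymal-type breast cancer cells, where AP-1 drives proteases and invasion genes.

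The libraries held 14723152 to 29294865 estimated counts, so that no count for a gene still allowed up to 0.106 to 0.200 CPM (3 counts, counting error only). Levels are normalised CPM, a count scaled to library size, on 1 scale over the 16 libraries. Each change is given on the log2 scale with its SE, from the quasi-likelihood test of edgeR, and was called at an adjusted p under 0.05. The summed level of 6 MDA-MB-231 markers lay between 6630 and 7743 CPM in that line and between 19.6 and 46.3 CPM in SKBR3. The 6 SKBR3 markers summed to 10014 to 12108 CPM in SKBR3 and 888 to 1068 CPM in MDA-MB-231. None of 5 leukocyte markers reached a mean of 1 CPM in any group. Of 6 fibroblast and endothelial markers 2 did in both groups of MDA-MB-231 and 5 in both groups of SKBR3, with sums of 7.42 to 11.4 and 13.5 to 15.6 CPM, while LUM had no count in SKBR3. Among them COL1A1 was at means of 4.95 to 7.60 CPM and PECAM1 at 2.23 to 2.73 CPM over the 4 groups, and their part in the results was not tested. The share of all mitochondrially encoded genes fell from 3.10 to 3.68% of counts in MDA-MB-231 controls to 0.891 to 1.24% with MitoQ, and from 5.67 to 7.08% to 5.15 to 5.26% in SKBR3. Replicate 2 of the MDA-MB-231 MitoQ libraries stood apart from the other 9 libraries of that line, at -26.6 on the second principal component against -6.68 to 10.6. SKBR3 control 3 lay nearer to the MitoQ libraries on the first component (-7.18) than the other controls (-21.0 and -20.5). In these bulk samples, fewer expressing cells and less mRNA per cell cannot be told apart.

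Promoter sequences of 7 of the 8 members were taken from RefSeq on GRCh38.p14 (250 bases before the annotated start). The windows of EGR1, JUNB and JUND are printed because EGR1 and JUNB had the largest changes in MDA-MB-231, JUND was one of the genes that rose in SKBR3, and none of these windows overlaps an annotated exon. Capitals mark the 2 CArG boxes of EGR1 and the cyclic AMP response element of JUND; JUNB held no searched motif.
EGR1, chr5:138465229-138465478, plus strand: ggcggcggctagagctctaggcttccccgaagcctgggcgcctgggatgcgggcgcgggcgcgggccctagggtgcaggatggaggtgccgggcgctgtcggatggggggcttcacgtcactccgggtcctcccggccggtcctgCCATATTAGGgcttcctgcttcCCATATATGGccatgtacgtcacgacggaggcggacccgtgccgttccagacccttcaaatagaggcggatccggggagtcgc
JUNB, chr19:12791236-12791485, plus strand: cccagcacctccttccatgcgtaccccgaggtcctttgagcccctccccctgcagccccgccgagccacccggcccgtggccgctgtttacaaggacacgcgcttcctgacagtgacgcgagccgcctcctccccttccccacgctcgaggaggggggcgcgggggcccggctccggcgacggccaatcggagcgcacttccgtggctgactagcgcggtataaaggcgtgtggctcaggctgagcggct
JUND, chr19:18281623-18281872, minus strand: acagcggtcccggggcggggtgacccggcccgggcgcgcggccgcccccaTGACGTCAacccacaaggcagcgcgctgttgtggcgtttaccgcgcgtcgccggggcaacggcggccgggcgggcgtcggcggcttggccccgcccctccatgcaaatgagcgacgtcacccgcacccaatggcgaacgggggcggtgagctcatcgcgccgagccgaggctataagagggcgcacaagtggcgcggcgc
The CArG boxes, CCATATTAGG and CCATATATGG, lie 105 to 96 and 83 to 74 bases before the EGR1 start and do not overlap. TGACGTCA lies 200 to 193 bases before the JUND start. Both strands were searched for the AP-1 site TGANTCA, TGACGTCA, the amino acid response element part TGATGNAA, the EGR1 site GCGTGGGCG and the CArG box. Among 35116 promoters of the same length these were found in 6.57%, 1.65%, 3.14%, 0.72% and 1.16%. The windows of FOS, FOSB, FOSL2 and JUN held no exact match to these letters. They overlap annotated exons of their own genes, by 54, 1 and 35 bases for FOS, FOSB and FOSL2. The JUN window lies in an annotated JUN exon over all 250 bases, so sequence before that exon was not searched.

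In the control cells the lines differed in which members had the most mRNA. SKBR3 had almost no FOSL1 mRNA and far less JUN and FOSL2, and more JUNB and EGR1, than MDA-MB-231. Of the 8 members, 3 were called higher in SKBR3 (JUNB, EGR1, JUND) and 3 lower (FOSL1, FOSL2, JUN), where 86.5% of 16398 genes tested were called (42% higher, 44.4% lower). All 8 members passed the filter on low counts in this and every other comparison. The 2 groups of controls did not overlap for 5 members, as for 83% of all genes.

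FOSL1 (ENSG00000175592, chromosome 11, 65892049 to 65900573, minus strand, GRCh38) encodes FRA1, a FOS protein without the strong activation domain of FOS. Its levels in controls of MDA-MB-231 were 440, 484, 482, 447 and 462 CPM, and in those of SKBR3 0.759, 0.932 and 0.905 CPM, from 14 to 25 counts. Every SKBR3 control lay far below every MDA-MB-231 control, at a log2 difference of -9.03 ± 0.086 (adjusted p = 2.37e-26). Of its 31-base stretches 6.86% also occur in the pseudogene FOSL1P1. FOSL2 (ENSG00000075426, chromosome 2, 28392448 to 28417312), which encodes the related FRA2, ranged over 280 to 322 CPM in controls of MDA-MB-231 and at 95.8, 93.0 and 106 CPM in the SKBR3 controls. It was 3.08-fold lower in SKBR3 (log2 -1.62 ± 0.053, adjusted p = 8.13e-17), with no overlap.

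JUN (ENSG00000177606, chromosome 1, 58780788 to 58784327), the most active JUN protein, was at 199, 212, 191, 186 and 186 CPM in controls of MDA-MB-231 and 18.9, 20.5 and 23.9 CPM in the SKBR3 controls. It was 9.03-fold lower in SKBR3 (log2 -3.18 ± 0.069, adjusted p = 1.32e-18). JUNB, often a weaker activator than JUN, went the other way: 9.37 to 12.1 CPM in the MDA-MB-231 controls and 36.6, 36.4 and 43.8 CPM in the SKBR3 controls, 3.68-fold higher (log2 1.88 ± 0.079, adjusted p = 2.70e-15). EGR1 was at 4.17 to 5.50 CPM and at 10.3, 10.5 and 12.2 CPM, 2.27-fold higher in SKBR3 (adjusted p = 3.08e-09). The control groups did not overlap for JUN, JUNB or EGR1. JUND, the member that most cells express steadily, differed little: 35.2 ± 3.13 CPM (SD, n = 5) and 39.8 ± 3.23 CPM (SD, n = 3), with overlap (log2 0.20 ± 0.071, adjusted p = 0.0144). That call was lost without SKBR3 control 1 (adjusted p = 0.116), without the filter on low counts (adjusted p = 0.0507) and in 1 fit over all libraries (adjusted p = 0.414). FOS and FOSB, at 1.19 to 2.84 CPM over the controls of both lines, did not pass the test, with 95% intervals of the log2 difference from -0.84 to 0.06 for FOS and -0.38 to 0.49 for FOSB.

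Set beside each other per kilobase of the longest annotated transcript, the 4 FOS family mRNAs summed to 324 ± 12.3 CPM per kb in the MDA-MB-231 controls (SD, n = 5) and 16.3 ± 1.08 in the SKBR3 controls (SD, n = 3). FOSL1 made up 85.4 ± 0.879% of that sum in MDA-MB-231 controls and 3.18 ± 0.344% in SKBR3 controls, where FOSL2 made up 89.8 ± 1.31%. FOS itself was 0.304% and 4.53% of the sum. The 3 JUN mRNAs summed to 79.9 ± 4.45 and 48.7 ± 3.31 CPM per kb. JUN held 69.0 ± 1.53% of the JUN sum in MDA-MB-231 controls and 12.2 ± 1.07% in SKBR3 controls, where JUNB (43.9 ± 2.43%) and JUND (43.9 ± 3.44%) held almost equal shares. The mRNA pool was thus mostly FOSL1 and JUN in one line and FOSL2, JUNB and JUND in the other.

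**Figure D1:**
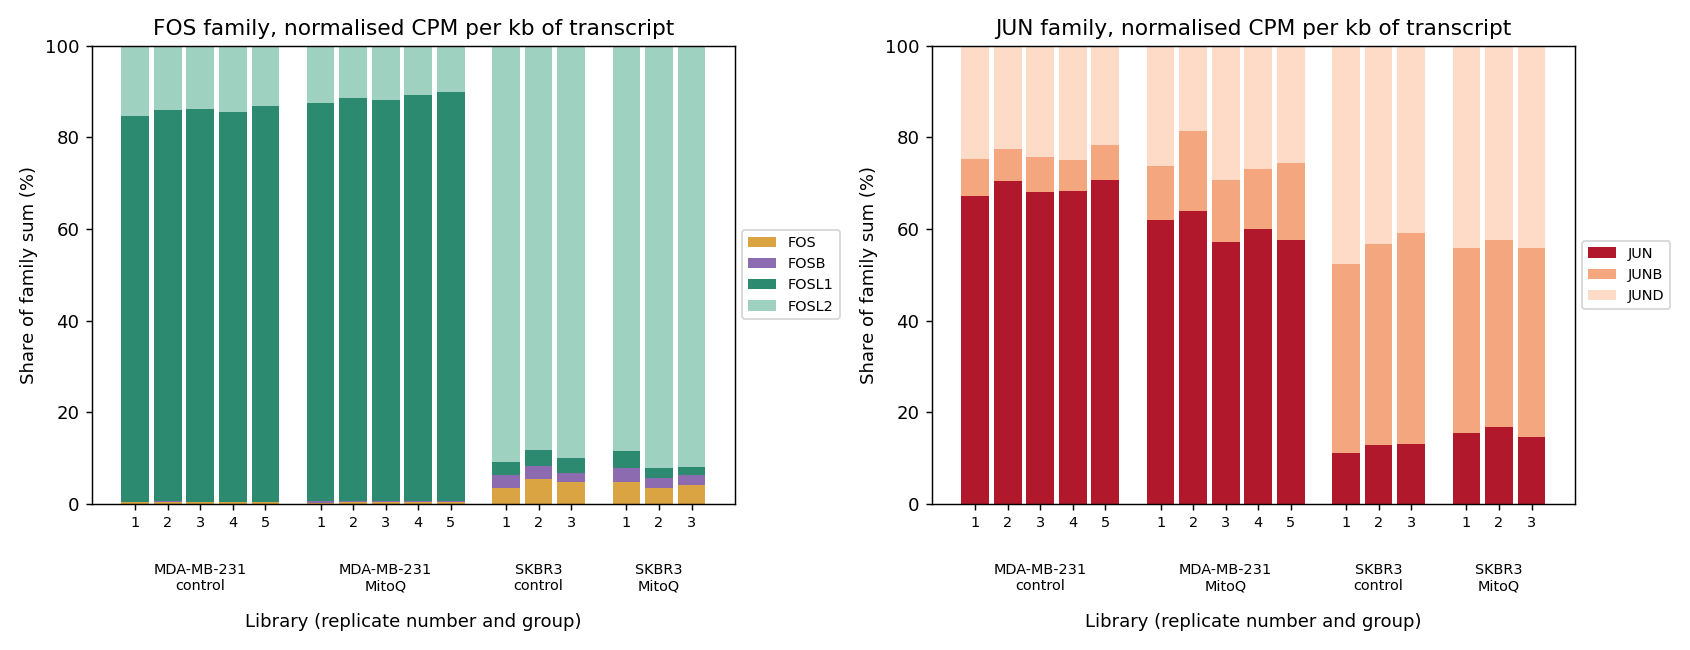
Share of each FOS family mRNA (left) and JUN family mRNA (right) in the family sum, in percent of normalised CPM per kb of transcript, with 1 bar per library. FOSL1 fills 84.2 to 89.4% of the FOS bars in MDA-MB-231 and 1.78 to 3.69% in SKBR3, and the JUNB part of the JUN bars is larger with MitoQ in MDA-MB-231.

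With MitoQ, the largest changes among the members in MDA-MB-231 were rises of EGR1 (4.73-fold), JUNB (2.51-fold) and FOSB (1.90-fold). FOSL1 and JUN rose slightly, FOSL2 fell slightly, and FOS and JUND did not pass the test. The count was 5 of 8 higher and 1 lower, where 57.5% of 15304 genes were called (29.9% higher, 27.6% lower), so that 6 calls among 8 genes are near the background. The median change of the members was 0.36 against 0.01 over all genes tested. EGR1 and JUNB were called with a change of at least 2-fold, as were 6.72% of all genes. Groups did not overlap for 3 members, as for 44.1% of all genes. Without MitoQ 2, 7 of 8 members were called, where the genes called over the whole fit went from 8805 to 9169.

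EGR1 (ENSG00000120738, chromosome 5, 138465490 to 138469315, plus strand) lay at 4.60, 5.48, 4.17, 5.50 and 5.01 CPM in the controls and at 20.1, 31.7, 19.2, 20.4 and 23.8 CPM in the MitoQ libraries, from at least 109 counts each. The lowest MitoQ library was more than 3 times the highest control. The log2 fold change was 2.24 ± 0.14 (adjusted p = 6.60e-09). MitoQ 2 was the highest library, and without it the change was 2.11 ± 0.089 (adjusted p = 1.64e-13).

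JUNB (ENSG00000171223, chromosome 19, 12791496 to 12793315, plus strand) lay at 12.1, 10.9, 11.1, 9.37 and 10.3 CPM in the controls and at 22.4, 24.1, 27.2, 26.3 and 33.5 CPM with MitoQ. Every MitoQ library was above every control, with a log2 fold change of 1.33 ± 0.097 (adjusted p = 1.89e-09). Its share of the JUN family sum per kb went from 7.40 ± 0.511% to 14.6 ± 2.35% (SD, n = 5 each), while that of JUN went from 69.0 ± 1.53% to 60.1 ± 2.88%. JUNB overlaps HOOK2 on the other strand, 12.8% of its 31-base stretches being antisense to that gene, and use of strand in the counting is not given in the sources used here.

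JUN itself was at 199, 212, 191, 186 and 186 CPM in the controls and 226, 173, 221, 232 and 225 CPM with MitoQ. MitoQ 2 was below all controls and the other 4 MitoQ libraries were above all of them. The change was 0.16 ± 0.067 (adjusted p = 0.0463). This call was lost under most alternatives, with adjusted p between 0.0604 and 0.0981 for those that lost it other than a threshold of 0.01 and the removal of a library (DESeq2 0.0628). It was also lost on removing any 1 library other than control 2 and MitoQ 2 (adjusted p up to 0.111). It was firmer without MitoQ 2 (0.24 ± 0.041, adjusted p = 4.99e-05).
JUND (ENSG00000130522, chromosome 19, 18279760 to 18281622, minus strand) was at 38.6, 35.5, 35.9, 35.9 and 30.1 CPM in the controls and 50.2, 26.4, 59.6, 54.8 and 52.5 CPM with MitoQ. Here too MitoQ 2 was below every control while the other 4 were above every control. The change over all libraries was 0.49 ± 0.20 (adjusted p = 0.0594). Without MitoQ 2 it was 0.65 ± 0.064 (adjusted p = 4.90e-08), and the call was also made by DESeq2 (adjusted p = 0.0335), limma voom (adjusted p = 0.0307) and plain library totals (adjusted p = 0.0328).

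In the FOS family, FOSB (ENSG00000125740, chromosome 19, 45467995 to 45475179, plus strand), an inducible full activator, was at 1.48, 1.67, 1.27, 1.55 and 1.47 CPM in the controls and 3.03, 2.63, 2.65, 2.38 and 3.25 CPM with MitoQ. The groups did not overlap, and the rise of 0.93 ± 0.15 (adjusted p = 2.44e-05) rested on 35 to 82 counts per library. FOSB overlaps ERCC1 on the other strand. FOS (ENSG00000170345, chromosome 14, 75278774 to 75282230, plus strand), the founding member of the family, was as scarce: 2.02, 2.84, 2.09, 1.76 and 1.96 CPM in the controls and 1.70, 3.01, 2.11, 2.77 and 2.71 CPM with MitoQ. The FOS groups overlapped throughout, with a change of 0.22 ± 0.18 (adjusted p = 0.304, 95% interval -0.15 to 0.59).
FOSL1, by far the most abundant FOS mRNA in this line, was at 440, 484, 482, 447 and 462 CPM in the controls and 484, 472, 492, 582 and 611 CPM with MitoQ. Its groups overlapped and the rise was 0.21 ± 0.064 (adjusted p = 0.00892). FOSL2 was at 322, 319, 309, 305 and 280 CPM in the controls and 278, 246, 265, 280 and 276 CPM with MitoQ. It fell by 0.17 on the log2 scale (adjusted p = 0.00645), and with plain library totals the fall was at the threshold (adjusted p = 0.0502). The FOS family sum per kb was 324 ± 12.3 in the controls and 358 ± 39.6 with MitoQ (SD, n = 5 each), with FOSL1 at 88.2 ± 0.936% of it.

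**Figure D2:**
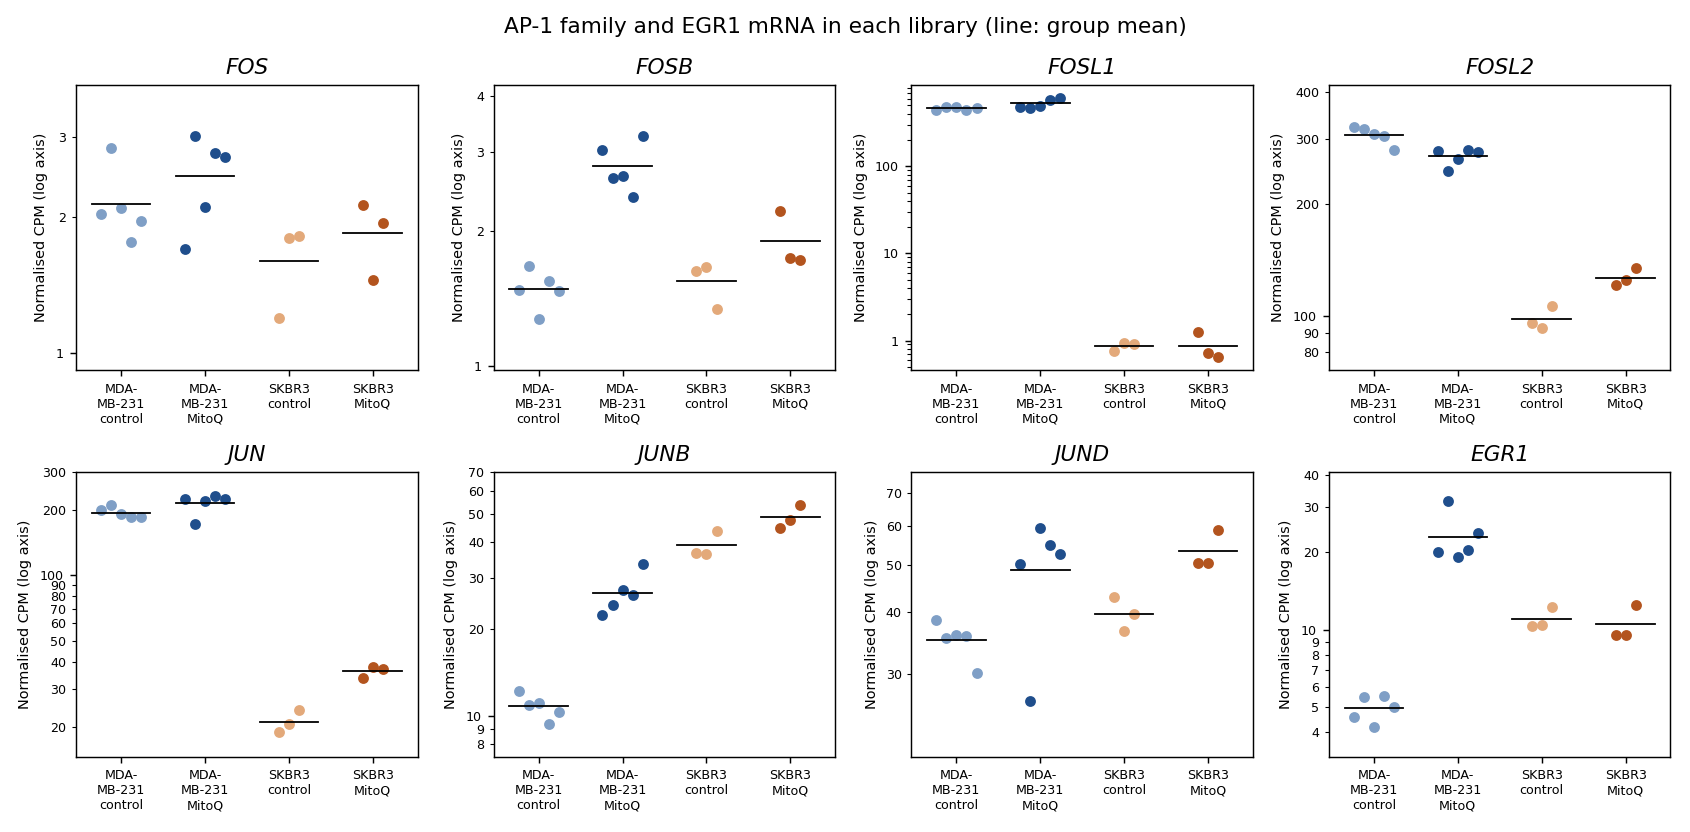
Normalised CPM of each member in each library (points, log axis) with the group mean (line), for MDA-MB-231 (blue) and SKBR3 (orange), controls pale and MitoQ dark. EGR1, JUNB and FOSB are separated by treatment in MDA-MB-231, and FOSL2, JUN, JUNB, JUND and FOSB in SKBR3, where FOSB did not pass the test. The low JUND point of MDA-MB-231 is MitoQ 2 at 26.4 CPM.

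In SKBR3, JUN rose 1.68-fold with MitoQ, JUND 1.32-fold, FOSL2 1.27-fold and JUNB 1.22-fold, and EGR1, FOS, FOSB and FOSL1 did not pass the test. That is 4 of 8 higher and none lower (0 lower also at an unadjusted p under 0.05, and by DESeq2 and limma voom), where 28% of 15026 genes were called (13.8% higher, 14.1% lower). The members' median change was 0.29 against -0.000642 over all genes. Groups did not overlap for 5 members, as for 40% of all genes. No member reached a 2-fold change, and 0.912% of all genes were called with a change of at least 2-fold. Leaving out any 1 of the 6 libraries left 4 members called.

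JUN was at 18.9, 20.5 and 23.9 CPM in the SKBR3 controls and 33.6, 37.9 and 36.9 CPM with MitoQ. All MitoQ libraries were above all controls, with a change of 0.75 ± 0.077 (adjusted p = 1.43e-05). Even so its level stayed below that of every MDA-MB-231 library. JUND was at 43.1, 36.6 and 39.6 CPM in the controls and 50.5, 50.5 and 58.9 CPM with MitoQ, again without overlap (0.40 ± 0.068, adjusted p = 0.000755). JUNB was at 36.6, 36.4 and 43.8 CPM and at 44.8, 47.6 and 53.9 CPM. Its groups were narrowly separated, control 3 lying just under MitoQ 1, and the change was 0.29 ± 0.075 (adjusted p = 0.0107). In 1 fit over all 16 libraries, where both lines share an estimate of spread, neither JUNB (adjusted p = 0.0635) nor JUND (adjusted p = 0.240) passed. The JUN family sum per kb was 48.7 ± 3.31 in the controls and 65.6 ± 5.39 with MitoQ (SD, n = 3 each), with shares of 15.6% JUN, 40.8% JUNB and 43.6% JUND.

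FOSL2, the leading FOS mRNA of SKBR3, was at 95.8, 93.0 and 106 CPM in the controls and 121, 125 and 134 CPM with MitoQ. The groups did not overlap and the rise was 0.34 ± 0.048 (adjusted p = 0.000167). FOSB was at 1.63, 1.66 and 1.34 CPM and at 2.22, 1.74 and 1.72 CPM. Its groups did not overlap either, but the change of 0.29 ± 0.22 did not pass (adjusted p = 0.364, 95% interval -0.18 to 0.76). FOS was at 1.19, 1.80 and 1.81 CPM and at 2.12, 1.45 and 1.94 CPM, from 22 to 50 counts, with overlap (adjusted p = 0.684). FOSL1 stayed below 1.3 CPM in all 6 libraries (12 to 26 counts), and at this depth its interval was wide, -0.68 to 0.67 on the log2 scale.

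EGR1 was at 10.3, 10.5 and 12.2 CPM in the SKBR3 controls and 9.55, 9.54 and 12.5 CPM with MitoQ. The groups overlapped and the change was -0.10 ± 0.11 (adjusted p = 0.549). Its 95% interval, -0.35 to 0.14, does not reach the change seen in MDA-MB-231.

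The difference between the lines was tested as an interaction over all 16 libraries, with the MDA-MB-231 change subtracted from the SKBR3 change. The change was lower in SKBR3 for EGR1 and JUNB and higher for JUN and FOSL2. These 4 of 8 members passed, 2 in each direction, where 34.1% of 17094 genes did (19.1% higher, 14.9% lower). Of the calls over all genes 56.1% were higher, and 41.6% with plain library totals. The difference was -2.30 ± 0.22 for EGR1 (adjusted p = 9.68e-08) and -0.99 ± 0.15 for JUNB (adjusted p = 2.92e-05). It was 0.62 ± 0.13 for JUN (adjusted p = 0.000700) and 0.55 ± 0.081 for FOSL2 (adjusted p = 8.59e-06), which fell in MDA-MB-231 and rose in SKBR3. Each of these 4 calls held without MitoQ 2 of MDA-MB-231.

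For FOSB the difference was -0.60 ± 0.25 and missed the threshold (adjusted p = 0.0686), and it passed with plain library totals (adjusted p = 0.0399) and without SKBR3 MitoQ 1 (adjusted p = 0.0432). No difference was called for FOS (-0.02, 95% interval -0.67 to 0.62), FOSL1 (-0.19, interval -0.92 to 0.54) or JUND (-0.05, interval -0.65 to 0.55). On the negative side these intervals are wide enough to hold differences of the size called for JUN, whose own difference was positive. Without MitoQ 2 of MDA-MB-231 the JUND difference was -0.19 ± 0.11 (adjusted p = 0.170).

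**Figure D3:**
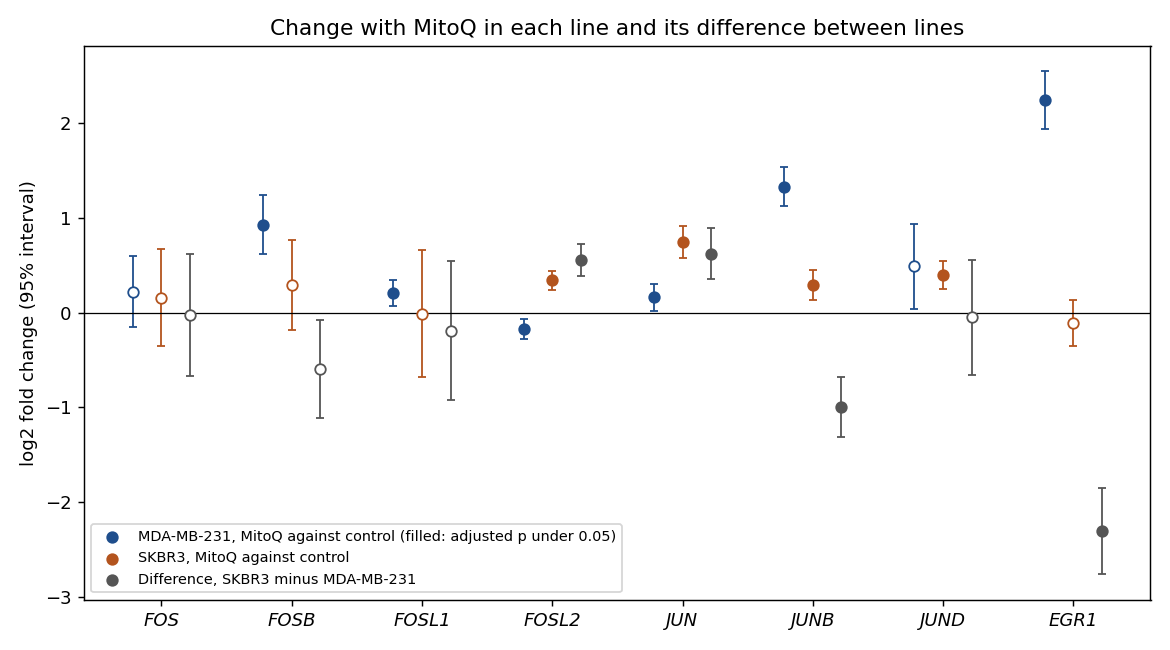
Log2 fold change with MitoQ of each member in MDA-MB-231 (blue) and SKBR3 (orange), and the SKBR3 change minus the MDA-MB-231 change (grey), with 95% intervals; filled points passed at an adjusted p under 0.05. EGR1 stands at 2.24 in MDA-MB-231 and -0.10 in SKBR3, JUN at 0.16 and 0.75.

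Over the 4 groups the order of levels differed by gene. EGR1 was highest in MDA-MB-231 with MitoQ (23.0 ± 5.14 CPM), followed by SKBR3 controls (11.0 ± 1.06) and SKBR3 with MitoQ (10.5 ± 1.71), which overlapped, and lowest in MDA-MB-231 controls (4.95 ± 0.575). JUNB went from 48.8 ± 4.63 CPM in SKBR3 with MitoQ through 38.9 ± 4.22 and 26.7 ± 4.25 to 10.8 ± 1.02 in MDA-MB-231 controls, each group being clear of its neighbours. JUND went from 53.3 ± 4.84 CPM in SKBR3 with MitoQ and 48.7 ± 12.9 in MDA-MB-231 with MitoQ to 39.8 ± 3.23 and 35.2 ± 3.13 in the controls. Its neighbouring groups overlapped at each step, but MDA-MB-231 with MitoQ overlapped the SKBR3 controls only through MitoQ 2, at 26.4 CPM. JUN was highest in MDA-MB-231 with MitoQ (215 ± 24.2 CPM) and in its controls (195 ± 10.9), which overlapped, then in SKBR3 with MitoQ (36.2 ± 2.27) and its controls (21.1 ± 2.53). FOSL2 ran from 307 ± 17.0 CPM in MDA-MB-231 controls and 269 ± 14.3 with MitoQ, just touching, to 127 ± 6.75 and 98.3 ± 7.02 in SKBR3 with and without MitoQ. FOSB was highest in MDA-MB-231 with MitoQ (2.79 ± 0.350 CPM), followed by SKBR3 with MitoQ (1.89 ± 0.280), each clear of the next group. The controls of SKBR3 (1.54 ± 0.177) and MDA-MB-231 (1.49 ± 0.145) overlapped, as did all neighbouring groups of FOS. The n behind these means is 5 in MDA-MB-231 and 3 in SKBR3 groups, and treated groups of different lines were not tested against each other.

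The library MitoQ 2 of MDA-MB-231 touched the members unequally. Against the mean of the other 4 MitoQ libraries the log2 deviation was -1.02 for JUND, -0.39 for JUN and 0.59 for EGR1. It was -0.16 for JUNB, and the remaining members lay between -0.19 (FOSL1) and 0.33 (FOS). The JUND transcript has the highest GC content of the members, 69.7%, against 64.9% for JUNB, 56.7% for JUN and 55.4% for EGR1. In the tenth of genes with the highest GC content the median deviation of this library was -0.12, and in the tenth with the lowest it was 0.14. Another MitoQ library, replicate 5, deviated the opposite way by as much (0.17 and -0.15), and its log2 deviation for JUND was 0.20. What part GC content had in the low JUND level was not tested.

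**Figure D4:**
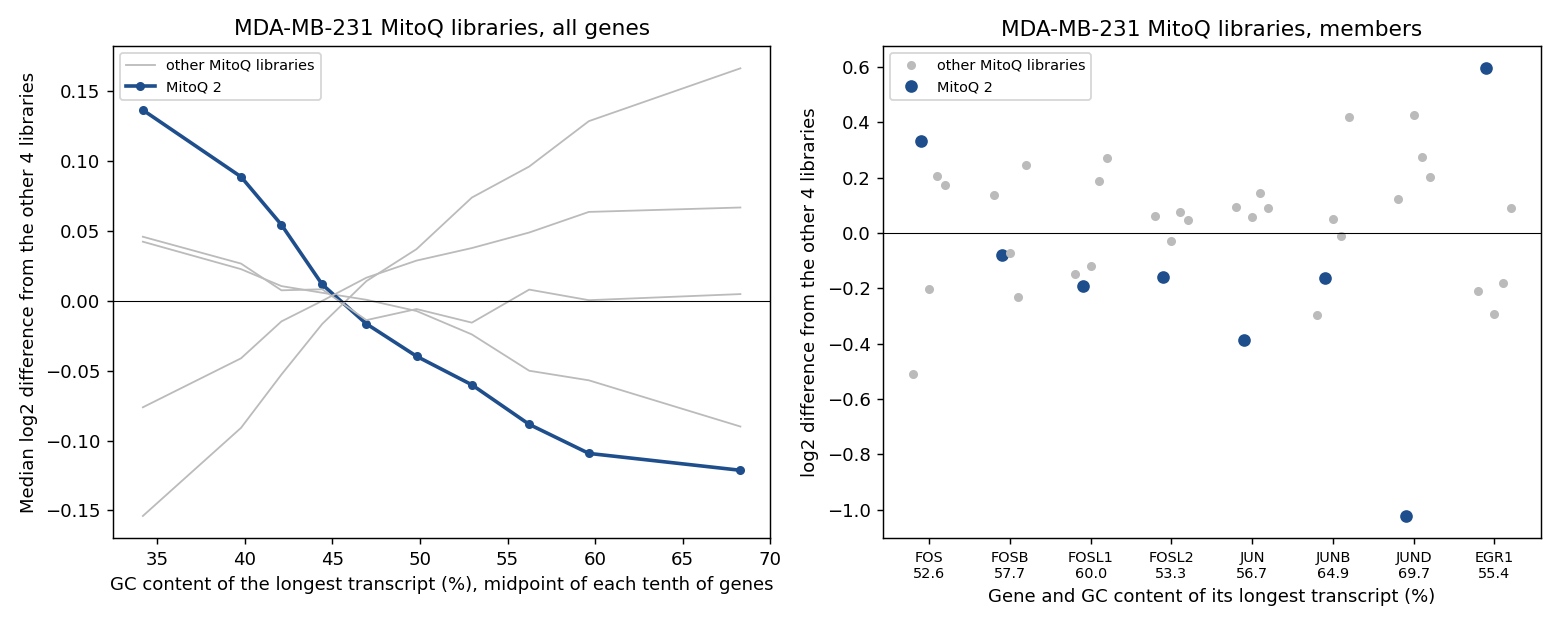
Deviation of each MDA-MB-231 MitoQ library from the other 4 on the log2 scale, as medians over all genes by bins of transcript GC content (left) and for each member (right), with MitoQ 2 in blue. MitoQ 2 falls from 0.14 at low GC to -0.12 at high GC, and its JUND point lies at -1.02.

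Genes around the members were grouped into 8 lists by their role, some genes being in more than 1 list. The counts of called genes in each list stand beside 29.9% higher and 27.6% lower over all genes in MDA-MB-231, and 13.8% and 14.1% in SKBR3, and the lists were not tested as groups. Upstream lie the MAP kinase genes. Of 27 tested, 7 rose and 15 fell in MDA-MB-231 (median -0.18), and 7 rose and 3 fell in SKBR3 (median 0.02). RPS6KA2, a ribosomal S6 kinase that ERK activates, rose from 15.2 ± 1.08 to 103 ± 5.36 CPM in MDA-MB-231 (log2 2.78 ± 0.057, adjusted p = 1.39e-17) and from 34.6 ± 1.65 to 49.9 ± 1.81 CPM in SKBR3 (0.50 ± 0.053). MAP2K6, a kinase that activates p38, fell by 2.38 on the log2 scale in MDA-MB-231, from 3.83 to 0.717 CPM, and by 0.34 in SKBR3. The SKBR3 call was lost without control 1, MitoQ 2 or MitoQ 3, and in 1 fit over all libraries (adjusted p = 0.104, edgeR). MAP2K5, which activates ERK5, rose by 0.58 ± 0.069 in MDA-MB-231, and the ERK5 gene MAPK7 by 0.35 ± 0.094 in SKBR3 (adjusted p = 0.0680 without SKBR3 MitoQ 2). Without SKBR3 MitoQ 2, as in 1 fit over all libraries, 4 of the 27 rose and none fell in SKBR3.

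SRF itself fell in MDA-MB-231 (119 to 84.4 CPM, -0.48 ± 0.079), and its cofactor ELK4 rose (122 to 186 CPM, 0.64 ± 0.056), while MRTFB fell by 0.28. Of the 6 tested genes of that list 2 rose and 2 fell (median -0.08). In SKBR3 only MRTFA passed, with a rise of 0.27 ± 0.064, and 3 of the 6 rose without SKBR3 control 3. In the list of EGR family genes and NAB corepressors, 3 of 4 tested rose and 1 fell in MDA-MB-231. The corepressors NAB1 (0.46 ± 0.057) and NAB2 (0.33 ± 0.096), which bind EGR1 and curb it, were among those that rose. WT1, a zinc finger factor with similar sites, fell by 1.75 there from 1.97 to 0.572 CPM. None of the 3 tested genes of that list passed in SKBR3 by edgeR, DESeq2 or limma voom, and 0 had an unadjusted p under 0.05.

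The partners that dimerise with JUN or FOS proteins, with related leucine zipper factors, mostly rose in MDA-MB-231: 11 of 15 tested higher and 3 lower, median 0.34. ATF3, a stress-induced partner of JUN, went from 6.92 ± 0.853 to 15.3 ± 0.937 CPM (1.16 ± 0.086), and JDP2, a repressive partner of JUN, from 19.0 ± 1.29 to 47.4 ± 4.15 CPM (1.34 ± 0.066). MAF rose by 1.60 ± 0.14. In SKBR3, 4 of 13 rose and 2 fell (median 0.10), again with ATF3 (0.45 ± 0.073) and JDP2 (0.43 ± 0.081) among the risers. ATF2, a partner of JUN at cyclic AMP response elements, fell in both lines, by 0.25 in MDA-MB-231 and 0.44 in SKBR3. The changes of JDP2 and of MAFF, a small MAF protein, were more positive in MDA-MB-231 by the interaction test (-0.87 ± 0.12 and -0.78 ± 0.10). In SKBR3 the MAFF groups overlapped, at means of 12.8 CPM in controls and 13.6 CPM with MitoQ.

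Other immediate early genes rose in 21 of 28 tested in MDA-MB-231 and fell in 2, with a median of 0.65. RHOB, a small GTPase gene, rose from 32.3 ± 1.03 to 244 ± 81.9 CPM (2.94 ± 0.28), and KLF2, a zinc finger factor, from 15.2 ± 0.733 to 93.0 ± 29.4 CPM (2.63 ± 0.27). In both genes the lowest MitoQ library, at 106 and 41.1 CPM, was still above every control. KLF4 rose by 1.43 ± 0.063. In SKBR3, 13 of 26 rose and 1 fell (median 0.21), among them KLF2 (0.68 ± 0.13, adjusted p = 0.269 in the fit over all libraries), KLF4 (0.48 ± 0.069) and PHLDA1 (0.50 ± 0.11). Without SKBR3 MitoQ 2 the 13 became 8. RHOB was already at 527 ± 50.8 CPM in SKBR3 controls and at 561 ± 44.9 CPM with MitoQ (adjusted p = 0.502).

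Of genes known as AP-1 targets, 19 of 23 rose and 3 fell in MDA-MB-231 (median 0.44), and 9 of 19 rose and none fell in SKBR3 (median 0.43; no fall by DESeq2 or limma voom, and 0 falls at an unadjusted p under 0.05). The collagenase MMP1 (0.630 to 3.17 CPM, 2.35 ± 0.24) and the chemokine CXCL8 (7.26 to 16.7 CPM, 1.22 ± 0.10) rose in MDA-MB-231. In SKBR3 the largest rises were those of CD44, a hyaluronan receptor, from 16.9 ± 1.25 to 37.6 ± 3.07 CPM (1.12 ± 0.071), and PLAU, the urokinase gene, from 5.04 ± 0.640 to 10.7 ± 0.923 CPM (1.05 ± 0.12). Both differences between the lines passed (CD44 0.91 ± 0.076, PLAU 1.01 ± 0.16). CD44 is also a marker of MDA-MB-231, and the sum of those markers rose in SKBR3 from 19.6 to 21.5 to 40.7 to 46.3 CPM, while VIM, their defining gene, was at 0.179 and 0.401 CPM in SKBR3 against 3409 CPM in MDA-MB-231 controls. Between the control lines, 20 of 23 of these targets were lower in SKBR3 and 2 higher, with a median of -5.26, or -4.15 with MMP1, which had no count in SKBR3 controls, set at its bound (3 counts over the group). Over all genes tested between the control lines, 44.4% were called lower in SKBR3 and 42% higher, with a median of -0.0187.

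Of genes known as EGR1 targets, 9 of 15 tested rose and 3 fell in MDA-MB-231, where 29.9% of all genes were called higher (median 0.42, against 0.01 over all genes). In SKBR3, 5 of 14 rose and 2 fell, where 13.8% of all genes were called higher (median 0.14, against -0.000642) and where EGR1 did not pass the test. GDF15, a cytokine of stressed cells, went from 2.90 ± 0.341 to 41.5 ± 6.82 CPM in MDA-MB-231 (3.86 ± 0.12) and from 1.80 ± 0.471 to 4.78 ± 1.21 CPM in SKBR3 (1.33 ± 0.21). TNFSF10, the death ligand TRAIL, rose by 1.20 ± 0.18 in MDA-MB-231 and was too low to be tested in SKBR3. PDGFB, a growth factor, rose by 0.33 ± 0.062 in SKBR3. Among the genes that degrade JUN and FOS proteins or their mRNAs, 7 of 14 rose and 6 fell in MDA-MB-231 (median 0.08), and 2 rose and 3 fell in SKBR3 (median 0.04; 1 and 0 without SKBR3 MitoQ 2). TRIB1, an adaptor of the COP1 ubiquitin ligase, rose by 1.16 ± 0.076 in MDA-MB-231, and ZFP36 (0.78 ± 0.088) and ZFP36L1 (0.72 ± 0.047), which bind AU-rich elements and hasten mRNA decay, rose as well. ZFP36L1 also rose in SKBR3 (0.22 ± 0.046), while the ubiquitin ligase UBR1 (-0.20 ± 0.046) and TRIB2 (-0.36 ± 0.11) fell. Both falls lost the call without SKBR3 MitoQ 2 (adjusted p = 0.0626 and 0.169), and that of TRIB2 also without control 1 (0.0811), control 2 (0.0978) or MitoQ 3 (0.0773) of SKBR3, and by DESeq2 (adjusted p = 0.0530).

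**Figure D5:**
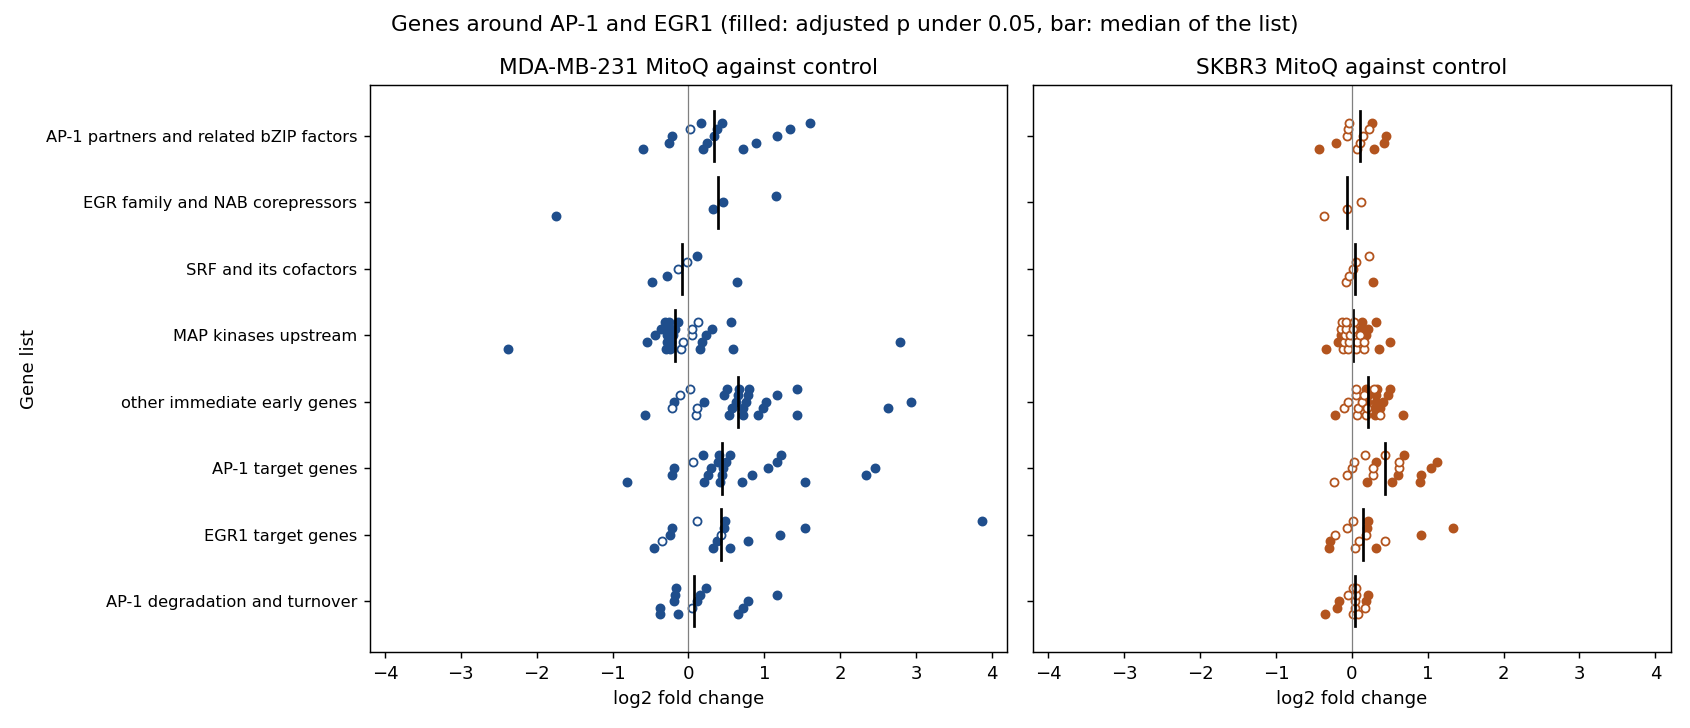
Log2 fold change with MitoQ of the tested genes of 8 lists around AP-1 and EGR1, in MDA-MB-231 (left) and SKBR3 (right); filled points passed at an adjusted p under 0.05 and the bar is the list's median. The medians of the immediate early and AP-1 target lists lie at 0.65 and 0.44 in MDA-MB-231 and at 0.21 and 0.43 in SKBR3.

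For each member the 2 protein-coding genes with the most similar pattern were sought among 9562 genes, by Pearson's r over the 16 libraries after the control mean of each line was subtracted. The libraries share lines, treatment and depth, so r is a description. EGR1 was most like SLC38A1, a glutamine transporter gene (r = 0.991), and SPIRE1 (0.988), and JUNB was most like EIF4EBP1, a translation repressor gene (0.991), and ADIRF (0.989). JUN was nearest to HEG1 (0.972) and the Notch ligand gene JAG2 (0.970), and FOSL2 to PHLDB1 (0.977) and NTN1 (0.971). JUND was nearest to PTGES (0.946) and JUP (0.931), and FOSB to ICA1 (0.947) and TUT1 (0.943). The scarce FOS (PIAS4, 0.762, and TMEM79, 0.750) and the FOSL1 pattern (DDX19B, 0.766, and TAF8, 0.762) had weaker neighbours. Among the members themselves the closest match was that of EGR1 with JUNB (0.927).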

How the data were processed

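RNA was sequenced in 16 libraries of 2 cell lines. The deposited table gives an estimated count per gene and library in whole numbers. Tools and build, per the submitters' processing notes, are Salmon, edgeR and GRCh38. Their versions, the annotation release, strand use and rounding are not given in the sources used here. Positions, lengths and 31-base overlaps come from GENCODE release 29, which matched 35003 of 35106 rows.

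Testing used edgeR 4.0.16 in R 4.3.3 after filterByExpr and TMM scaling (robust quasi-likelihood F test, two-sided, no replicate block, Benjamini-Hochberg over all genes tested, threshold 0.05). MitoQ was tested within each line, the lines over their controls, and the difference of effects as an interaction over all libraries. An SE is the size of the log2 change divided by the root of F, and intervals are 95% intervals. The scripts were tested on simulated data. Alternatives were RLE factors, plain totals, DESeq2 1.42.0, limma voom (3.58.1), other filters, a threshold of 0.01, mitochondrial genes left out, a replicate block, 1 fit over all libraries, exon-union lengths and each library left out.

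The members and the 8 lists were chosen with earlier results of these data known. Named are all members and, per list, the 3 called genes with the largest change in each line and the 2 with the largest interaction, from a mean of 1 CPM. Similar patterns were sought among genes of at least 5 CPM in each line, on log2 (CPM + 0.5). ATF2 in MDA-MB-231 and RHOB in SKBR3 were named for contrast after their values were seen. A gene that the rule names is not reported here.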

Additional observations from a re-analysis of the deposited data

Results flagged for a closer look

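Among 16 gene and group combinations checked in groups of 5 MDA-MB-231 libraries, 2 had a library far from the rest, where chance gives about 1 in 20. Both were MitoQ 2: JUN at 173 CPM, below the other 4 MitoQ libraries, and JUND at 26.4 CPM.

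The effect of MitoQ differed between the lines, by the interaction term (SKBR3 change minus MDA-MB-231 change, log2), for 4 members. The difference was 0.55 for FOSL2, 0.62 for JUN, -0.99 for JUNB and -2.30 for EGR1. Among the genes named from the lists, the change was more positive in MDA-MB-231 for JDP2 (-0.87), MAFF (-0.78), NAB1 (-0.29), ELK4 (-0.66), RPS6KA2 (-2.24), KLF2 (-1.92), RHOB (-2.83), GDF15 (-2.51), TNFSF10 (-1.52), TRIB1 (-0.94) and ZFP36 (-0.69). It was more positive in SKBR3 for WT1 (1.42), SRF (0.58) and MAP2K6 (2.08), which fell in MDA-MB-231, and for PLAU (1.01) and CD44 (0.91). The NAB1 call was lost without SKBR3 control 2 (adjusted p = 0.0668, edgeR) or MitoQ 1 (0.0658). The TNFSF10 call was lost by limma voom (adjusted p = 0.139), without the filter on low counts (0.0616, edgeR), and without MDA-MB-231 control 2 (0.0510) or SKBR3 control 3 (0.284), MitoQ 1 (0.0729) or MitoQ 3 (0.0906).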

How the results depend on the processing

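No alternative reversed a called direction. Of the results on single members, 592 values under an alternative stayed on the same side of the threshold, 24 fell below it and 7 rose above it, most of them for JUN and JUND in MDA-MB-231. In SKBR3, 4202 genes were called, and this became 2436 at a threshold of 0.01, 2788 in 1 fit over all libraries and 2565 without MitoQ 2, and the fit over all libraries called 2 members in place of 4. In that fit 61.7% of the SKBR3 calls were higher against 49.4%, and plain library totals moved the interaction calls from 56.1% to 41.6% higher and those of MDA-MB-231 from 51.9% to 60.5%. Plain totals called 3 falls in place of 6 among the turnover genes in MDA-MB-231. Apart from the stricter threshold and left-out libraries, other list counts that moved by over 1.5 times did so by 1 to 3 genes.

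Leaving out 1 library at a time, the genes called ranged from 8296 to 9169 in MDA-MB-231 (5 to 7 members), from 2565 to 4547 in SKBR3 (4 members each time), from 5073 to 6212 for the interaction (4 to 5 members) and from 13873 to 14093 between the lines (5 to 6 members).

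To look for pairing, the mean of each group was subtracted per gene, and control libraries were correlated with MitoQ libraries of the same line. By these deviations, same-numbered libraries correlated at -0.098 to 0.024 in MDA-MB-231 and at -0.011 to 0.067 in SKBR3. Differently numbered ones correlated at -0.15 to 0.16 and at -0.12 to 0.11. No pairing was thus visible, and the sources used here do not say whether equal numbers belong together. With a replicate block 8363 genes and 5 members were called in MDA-MB-231, 4758 genes and 4 members in SKBR3, and 5416 genes and 4 members for the interaction. Only JUN in MDA-MB-231 lost its call among the members (adjusted p = 0.0981, edgeR). The block was not run between the lines, where equal numbers belong to different cells.

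Lengths from the union of exons gave FOSL2 91.8% and FOS 3.30% of the FOS family in SKBR3 controls, against 89.8% and 4.53%. FOS and FOSB, with 22 to 82 counts per library, and FOSL1 in SKBR3, with 12 to 26, are limited by depth.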
